A study of Homo sapiens with 8 samples.

Results

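The genes described here encode SR proteins, hnRNP proteins and tissue splicing regulators. They were chosen by symbol: SRSF with a number, TRA2A and TRA2B, HNRNP, PTBP1 to PTBP3, CELF1 to CELF6, MBNL1 to MBNL3, RBFOX1 to RBFOX3, NOVA1, NOVA2, QKI, and 9 RBM genes (RBM4, RBM5, RBM10, RBM20, RBM24, RBM25, RBM38, RBM39 and RBM47). This gave 59 members of the 19775 genes that had a probe set with a single symbol, and 1 pseudogene was left out. The member HNRNPD-DT is a long noncoding RNA that diverges from HNRNPD and was included through its symbol. SRSF2, SRSF9 and HNRNPH2 were not analysed here, because their probe sets carry several symbols.

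RNA was measured on 8 Affymetrix U133 Plus 2.0 arrays, 2 for each state of H1 and H9, which are established lines of human embryonic stem cells. Undifferentiated H1 and H9 cells grew in mTeSR1, a defined medium for pluripotent cells. Embryoid bodies (EB) are floating aggregates in which such cells begin to differentiate. For EB, H1 or H9 cells were dissociated with Accutase and held for 3 days on ultra low attachment plates in hESGM, a medium used here without bFGF and with 10 µM Y-27632, an inhibitor of the kinase ROCK. The labels name no genetic change. State therefore changes together with medium, attachment and the inhibitor, and their parts cannot be told apart. The labels call the 2 arrays of a group biological replicates but name no cultures, so p-values measure only the spread between these samples.

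Before messenger RNA leaves the nucleus its introns are removed, and regulators decide which exons are kept. SR proteins carry arginine and serine repeats, bind exonic enhancers and mostly promote the use of an exon, whereas many hnRNP proteins, the PTB proteins among them, bind silencers and promote skipping. CELF, MBNL, RBFOX, NOVA and several RBM proteins act in particular tissues such as brain, heart and muscle, and switches among them accompany differentiation. Many SR and hnRNP genes also control their own messages, through alternative forms that are degraded by nonsense-mediated decay or kept in the nucleus.

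Values are intensities, 1 per probe set and array, on which 2% trimmed means were 500.1 on all 8 arrays. Array medians split by state, at 68.7 to 74.7 on undifferentiated arrays and 83.0 to 86.0 on EB arrays. Each gene is given by its brightest probe set. Of all genes, 14056 were above their array's median on at least 2 arrays and were tested, and all 59 members were among them. A total of 56 members were above the median on all 8 arrays, as were 81.8% of the tested genes. The other members, CELF3, CELF6 and RBM20, passed through their EB arrays alone, so a difference was built into their selection. The labels' cell type was borne out by its markers: all 9 measured pluripotency markers were above the median on every array, NANOG at 8031 to 9243 in undifferentiated cells and 4409 to 4789 in EB. The 3′ to 5′ ratio of the GAPDH control signal was 0.848 to 0.965. The arrays labelled H9 EB stood apart. A set of 5 autosomal genes that were dim in undifferentiated H9 and bright in both states of H1 (CRYZ, CXCL11, TRIM61, TYW3 and ZNF680) lay, on these arrays, 18.4% to 31.6% of the way from the undifferentiated H9 level to the H1 EB level, with a median of 25%. What this comes from was not tested. Because of this the name "arrays labelled H9 EB" is used for the group, and results are given with and without it.

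Promoter sequence is shown for 4 members that span the range of change in EB, chosen after their values were seen: CELF3 with the largest rise, MBNL3 with the second largest, RBFOX3 with the largest fall, and SRSF1 with the smallest absolute change. Each run is the 250 bases before the transcription start in RefSeq, build GRCh38.p14, written 5′ to 3′ on the gene's own strand, which is the minus strand for all 4. Capitals mark CG pairs. CELF3 lies at chr1:151716804-151717053, MBNL3 at chrX:132490036-132490285, RBFOX3 at chr17:79658976-79659225 and SRSF1 at chr17:58007247-58007496.
CELF3: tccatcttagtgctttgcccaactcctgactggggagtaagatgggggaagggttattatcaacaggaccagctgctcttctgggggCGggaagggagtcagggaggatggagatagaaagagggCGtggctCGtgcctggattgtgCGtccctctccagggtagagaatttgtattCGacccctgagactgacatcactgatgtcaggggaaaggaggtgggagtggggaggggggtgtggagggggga
MBNL3: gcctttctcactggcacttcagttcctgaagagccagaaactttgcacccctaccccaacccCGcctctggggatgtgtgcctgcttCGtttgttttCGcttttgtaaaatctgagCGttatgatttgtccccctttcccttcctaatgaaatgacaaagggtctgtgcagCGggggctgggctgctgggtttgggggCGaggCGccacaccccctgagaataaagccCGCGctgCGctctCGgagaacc
RBFOX3: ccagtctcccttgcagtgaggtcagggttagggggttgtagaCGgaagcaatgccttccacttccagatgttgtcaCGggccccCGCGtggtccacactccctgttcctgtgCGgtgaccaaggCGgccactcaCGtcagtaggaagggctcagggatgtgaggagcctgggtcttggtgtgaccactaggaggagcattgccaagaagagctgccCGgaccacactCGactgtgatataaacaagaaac
SRSF1: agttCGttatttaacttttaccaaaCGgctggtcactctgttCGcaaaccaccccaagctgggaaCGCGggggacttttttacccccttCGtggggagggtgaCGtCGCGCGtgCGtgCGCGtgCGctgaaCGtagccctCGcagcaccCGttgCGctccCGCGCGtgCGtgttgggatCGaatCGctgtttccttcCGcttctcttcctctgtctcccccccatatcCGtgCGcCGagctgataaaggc
The CELF3 window holds 5 CG pairs, that of MBNL3 11, that of RBFOX3 9 and that of SRSF1 28. Over all 27305 RefSeq promoters of this length the median was 11. Windows were found for 54 of the 59 members, with a median of 24.5 CG pairs. The 9 members with a called log2 change of 1 or more in either direction had a median of 11, from 3 in MBNL2 to 29 in RBM20, and the 40 members that differed by under 0.5 had a median of 25. The ranges overlap, since SRSF8, with 2 CG pairs, differed by under 0.5. The Sp1-type box GGGCGG, on either strand, was in 64.8% of member windows and 42.3% of all. CCAAT, on either strand, was in 42.6% of member windows and 33% of all, and TATAAA, on either strand, in 13% and 11.1%. RBFOX3 is the printed gene with TATAAA and CELF3 the one with GGGCGG. These matches describe the letters in the window and nothing about binding.

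Between undifferentiated cells and EB, averaged over the lines, 24 members rose, 22 fell and 13 were not called, by limma's moderated test with Benjamini-Hochberg adjustment over all 14056 genes at 0.05. The background was high, since 35.4% of all tested genes rose and 33.1% fell, 68.5% together, beside 46 of the 59 members, so a call on its own sets the members little apart. The same shares stand beside the counts by class and list below. Most of the changes were small. Of the 59 members 32 were called with a change under 0.5 on the scale of log2(intensity + 16), as were 32.6% of all tested genes. Only 8 members rose by at least 1 (10.2% of all genes did), and RBFOX3 alone fell by at least 1 (3.61%). The 8 were CELF3, MBNL3, MBNL2, RBM24, RBM20, CELF6, NOVA1 and RBM5, all from the CELF, MBNL, NOVA and RBM classes. On brightest probe sets none came from the SR or hnRNP classes, although weaker probe sets of some of those genes rose by at least 1. CELF3, CELF6 and RBM20 passed the filter through their EB arrays alone, so their rise was built into the selection. The members' median change was 0.07 and that of all genes 0.01.

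Small changes turn on how the arrays are scaled. The deposited scaling to one mean gave 24 higher and 22 lower, quantile normalization gave 32 and 12, and centring each array on its median gave 13 and 30. Centring moved the median of all genes from 0.01 to -0.19, and the share of all calls that were higher from 51.6% to 34.6%. Under all 3 scalings 13 members were higher: CELF3, CELF6, MBNL2, MBNL3, NOVA1, RBM4, RBM5, RBM20, RBM24, RBM25, RBM39, SRSF12 and HNRNPA1. Among these, CELF3, CELF6 and RBM20 had passed the filter through their EB arrays alone. Under all 3, 12 were lower: RBFOX3, RBM38, RBM47, NOVA2, PTBP1, PTBP3, HNRNPA2B1, HNRNPF, HNRNPL, SRSF3, SRSF7 and SRSF10. Of all tested genes 24.6% were higher and 30.5% lower under all 3. CELF4, RBFOX1 and HNRNPD-DT were called under none, and the call of the other 31 members depended on the scaling. All 13 and all 12 kept their call when the arrays labelled H9 EB were left out. Over all members, 35 of the 46 calls held without those arrays, 11 were lost and 0 turned round.

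**Figure D1:**
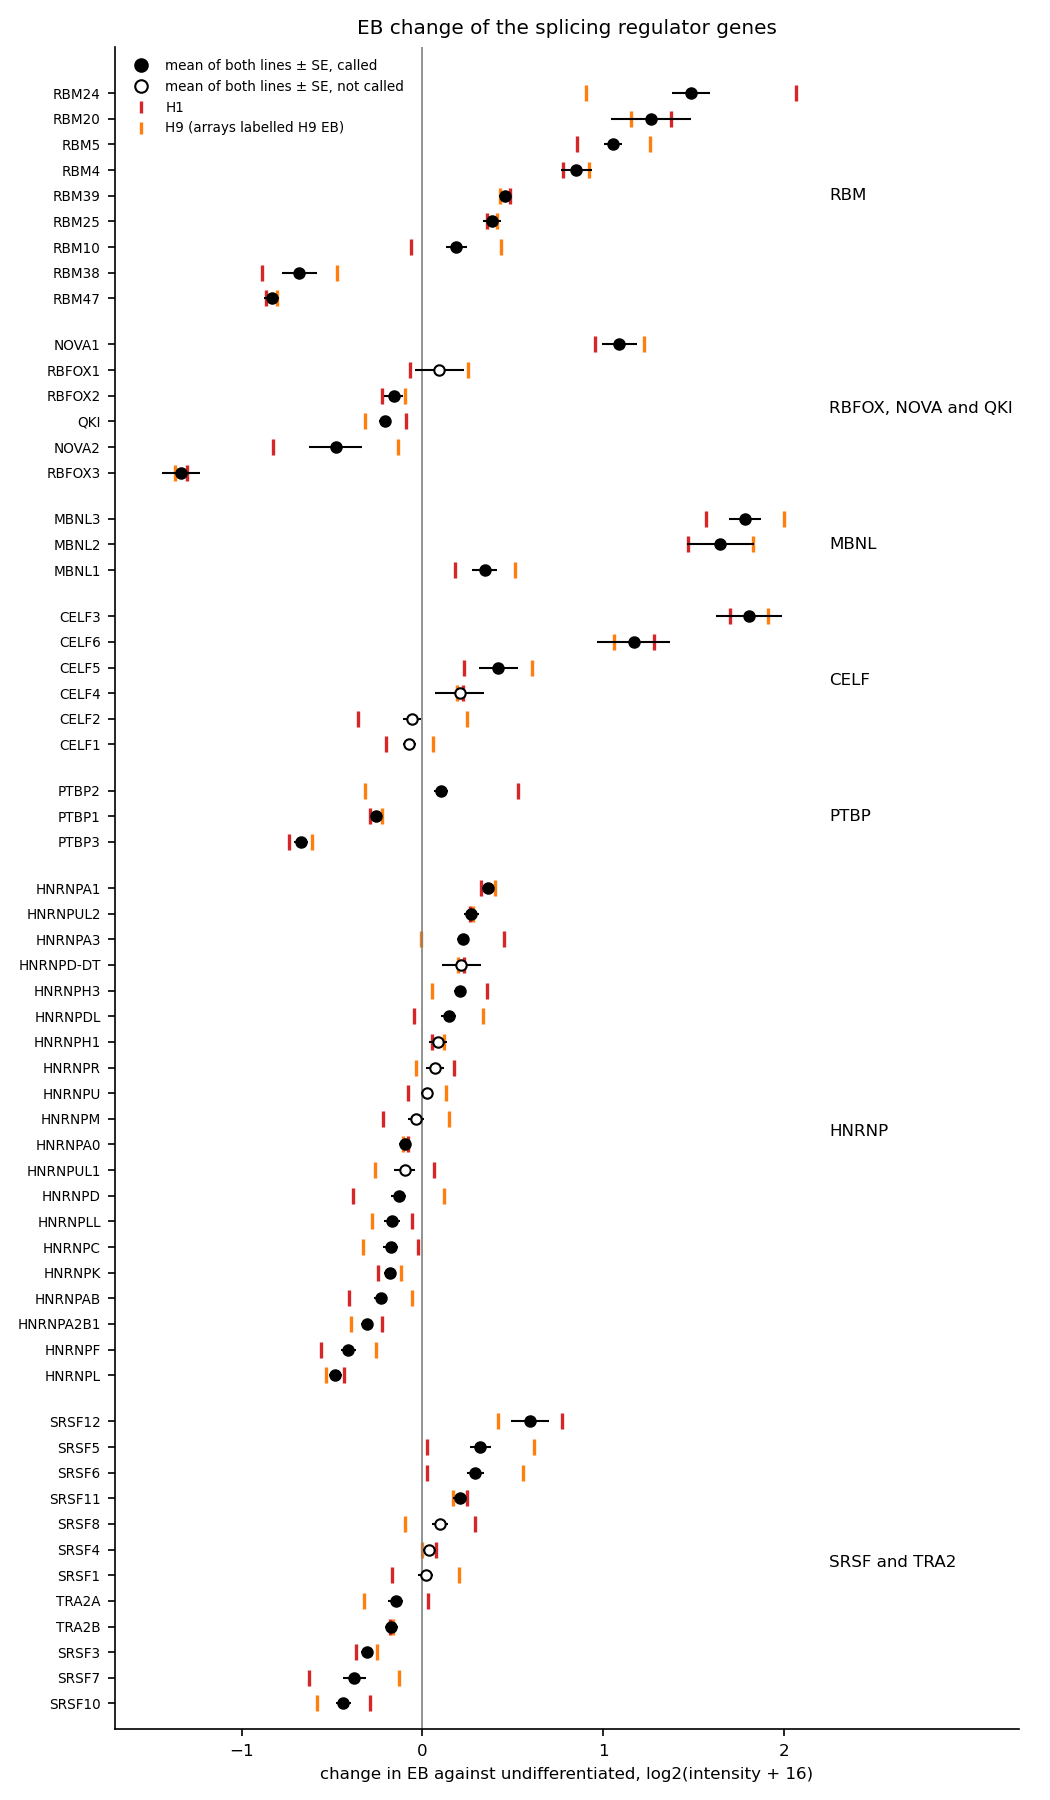
Change of each of the 59 members in EB against undifferentiated cells, on the log2(intensity + 16) scale, grouped by class. Circles give the mean of both lines with its standard error (filled where called by limma at an adjusted p under 0.05), and short bars give H1 (red) and H9 (orange, arrays labelled H9 EB). On brightest probe sets, SRSF, TRA2 and HNRNP genes lie between -0.48 and 0.60, whereas MBNL, CELF, RBFOX, NOVA and RBM genes span -1.34 to 1.81.

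The muscleblind genes rose in EB, as all 3 were called. Muscleblind proteins bind YGC-type motifs and drive the splicing patterns of mature muscle and brain. MBNL3, the member with the most restricted tissue range, had intensities of 213 and 190 in undifferentiated H1, 676 and 588 in H1 EB, 159 and 163 in undifferentiated H9, and 715 and 668 on the arrays labelled H9 EB. The 4 EB arrays were all above the 4 undifferentiated ones. The change was 1.79 ± 0.09 (SE, limma adjusted p = 1.24e-08), a 3.45-fold rise.

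MBNL2 had 158 and 112 in undifferentiated H1, 380 and 413 in H1 EB, 159 and 78.7 in undifferentiated H9, and 407 and 479 on the arrays labelled H9 EB. Its undifferentiated H9 arrays lay far apart, yet every EB array was above all 4 undifferentiated ones. The change was 1.65 ± 0.18 (limma adjusted p = 1.67e-05), and 0.38 when its probe sets were averaged (adjusted p = 0.0287). MBNL1, the most widely expressed paralog in adult tissue, had 569 and 527, then 627 and 617 in H1, and 464 and 495, then 722 and 658 in H9. Its rise of 0.34 ± 0.07 (limma adjusted p = 0.000919) was not called after centring (0.15, adjusted p = 0.08), when its probe sets were averaged (0.11, adjusted p = 0.452) or in H1 with the H9 EB arrays left out (0.18, adjusted p = 0.157).

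CELF proteins bind GU-rich sequence and oppose muscleblind proteins on many heart and muscle exons, while CELF3, CELF5 and CELF6 are mainly neural. In the mean of both lines 3 of the 6 rose in EB and 0 fell, while within H1 2 rose and 2 fell. CELF3 and CELF6 passed the filter through their EB arrays alone, so their rise was built into the selection. CELF3 had 46.0 and 29.4 in undifferentiated H1, 183 and 134 in H1 EB, 42.8 and 41.2 in undifferentiated H9, and 226 and 182 on the arrays labelled H9 EB. It was below the array median on every undifferentiated array and above it on every EB array. The bright side was at least 2.12-fold higher in H1 and at least 2.91-fold higher in H9, measured against the array median, and the fitted change was 1.81 ± 0.18 (limma adjusted p = 4.76e-06), or 1.01 over the average of its probe sets.

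CELF6 had 35.7 and 23.0, then 93.9 and 92.3 in H1, and 40.5 and 36.5, then 108 and 87.5 in H9. It too was below the median on every undifferentiated array, and EB was at least 1.33-fold higher over both lines (fitted change 1.17 ± 0.20, limma adjusted p = 0.000344, and 0.71 with 64 added). CELF5 had 475 and 392, then 478 and 544 in H1, and 320 and 389, then 618 and 483 in H9. The groups of CELF5 do not overlap, although by a margin of only a few units between 1 undifferentiated and 1 EB array of H1. Its rise of 0.42 ± 0.11 (limma adjusted p = 0.00477) was lost under quantile normalization (adjusted p = 0.0505), after centring (adjusted p = 0.0791) and when its probe sets were averaged (0.01, adjusted p = 0.895). In H1 on its own, with those H9 arrays left out, the adjusted p was 0.189. CELF1 and CELF2, the widely expressed members, and CELF4 were not called in the mean of the lines. Within H1, CELF1 fell by 0.20 (limma adjusted p = 0.00483) and CELF2 by 0.36 (adjusted p = 0.00128). Of the 7 probe sets of CELF1 3 fell and 0 rose, and of the 3 tested ones of CELF4 1 rose.

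The RBFOX, NOVA and QKI genes moved both ways, with 1 higher, 4 lower and 1 not called. NOVA1, which binds YCAY motifs in neurons, had 308 and 404 in undifferentiated H1, 737 and 661 in H1 EB, 312 and 268 in undifferentiated H9, and 689 and 706 on the arrays labelled H9 EB. The EB arrays all lay above the undifferentiated ones, and the rise was 1.09 ± 0.10 (limma adjusted p = 1.58e-06). A second NOVA1 probe set did not show it: its intensities were 199 to 321 in undifferentiated cells and 255 to 354 in EB, with a difference of 0.19 ± 0.12 (limma adjusted p = 0.193).

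RBFOX3 is the gene of the NeuN antigen, a marker of mature neurons. It was higher in undifferentiated cells, with 584 and 650 in H1 and 594 and 593 in H9, than in EB, with 206 and 279 in H1 and 236 and 205 on the arrays labelled H9 EB. It fell by 1.34 ± 0.10 on the log2 scale (limma adjusted p = 5.37e-07), and all 3 of its probe sets fell, by 0.82 to 1.34. NOVA2 had 326 and 231, then 175 and 125 in H1, and 173 and 204, then 156 and 184 in H9. Its H9 groups overlap, so the fall of 0.48 ± 0.15 (limma adjusted p = 0.0134) rests on H1 (-0.83 ± 0.21, adjusted p = 0.00567), and it was not called when its probe sets were averaged (-0.04, adjusted p = 0.756), without replicate 1 of undifferentiated H1 (adjusted p = 0.0629) or without replicate 2 of H1 EB (adjusted p = 0.0575). QKI, which binds ACUAA-type elements, fell by 0.21 ± 0.03 (limma adjusted p = 0.000234). RBFOX2, a known regulator of splicing in embryonic stem cells, fell by 0.16 ± 0.05 (limma adjusted p = 0.0177). Both calls were lost under quantile normalization and when probe sets were averaged (QKI 0.029, RBFOX2 0.022). The call of QKI was also lost without the arrays labelled H9 EB (-0.090, limma adjusted p = 0.167), and that of RBFOX2 when any of 4 single arrays was left out or eBayes was run plainly. RBFOX1 was not called on its brightest probe set (0.09, limma adjusted p = 0.556), but 2 of its 3 probe sets rose, by up to 1.12.

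**Figure D2:**
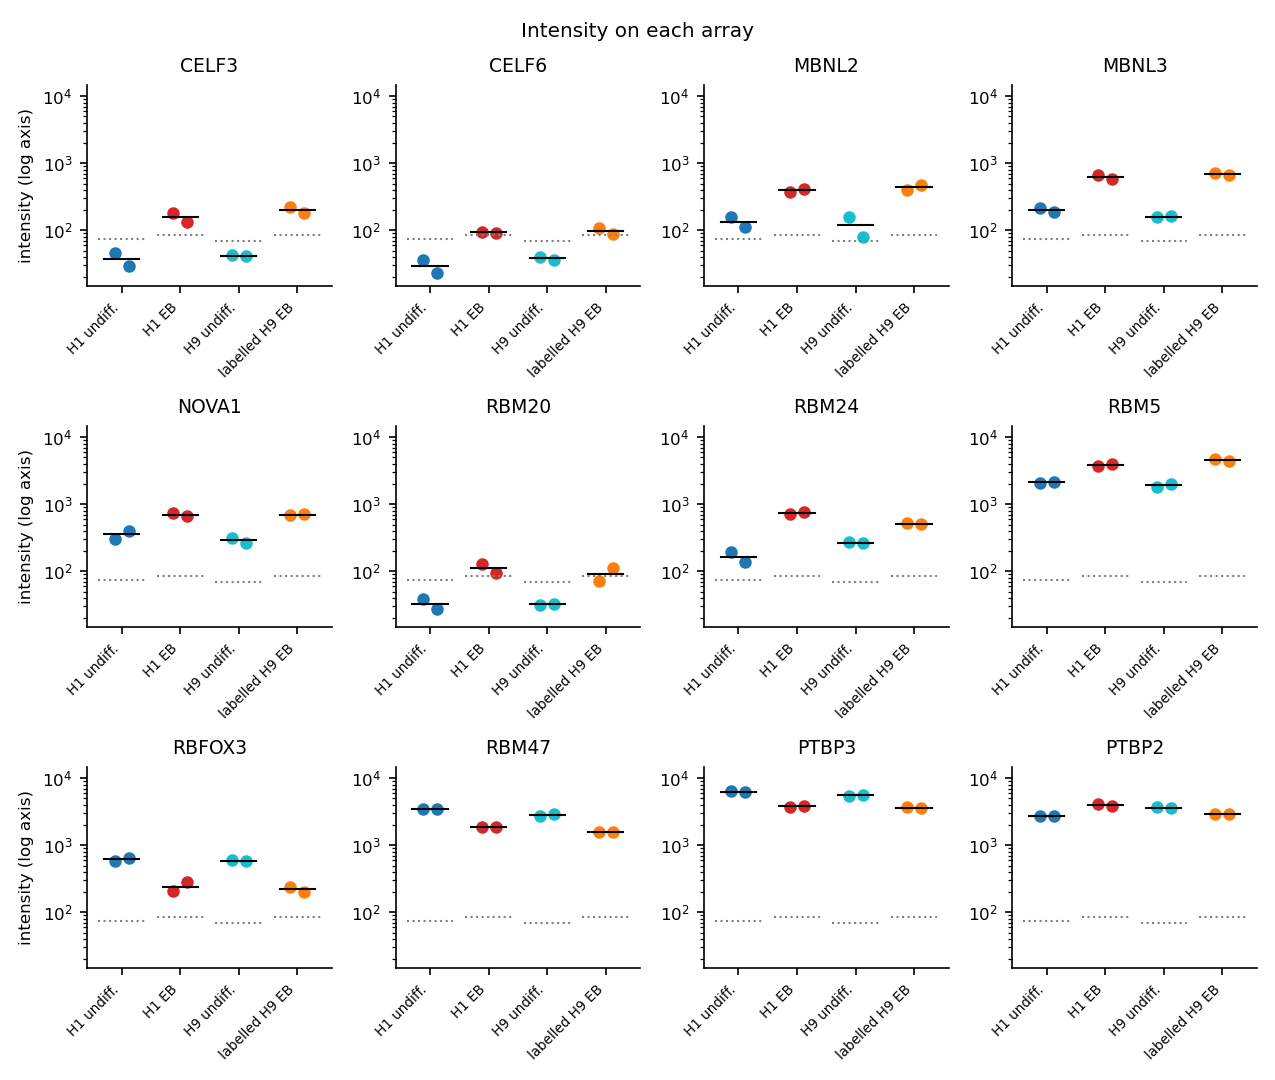
Intensity of 12 members on each of the 8 arrays (log axis), by group. Points are arrays, solid bars are means of the 2 arrays and dotted lines are the mean array median of the group. CELF3, CELF6 and RBM20 lie below the dotted line in undifferentiated cells, and PTBP2 goes up in H1 and down in H9.

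Markers of other cell types moved beside these genes. Of 10 tested neuron and neural progenitor markers 8 rose and 2 fell, and the summed intensity of the 11 measured was 20294 to 20854 in undifferentiated H1, 23583 to 24255 in H1 EB, 18142 to 18499 in undifferentiated H9 and 24952 to 25406 on the arrays labelled H9 EB. TUBB3 carries most of that sum. PAX6, a regulator of neural progenitors, went from 37.8 to 150 in undifferentiated cells to 1719 to 3295 in EB. NEUROG2 was below the median on all 8 arrays and SYN1, a gene of mature synapses, fell. Of 7 tested heart and skeletal muscle markers 3 rose, with MYL7 at 10.9 to 40.1 in undifferentiated cells and 244 to 319 in EB, while MYH6, TNNI1, MYOD1 and MYOG were below the median on all 8 arrays. All 8 endoderm markers rose, with AFP at 161 to 252 in undifferentiated cells and 6040 to 14680 in EB. In a bulk sample a larger share of cells of a type and more RNA per cell cannot be told apart, and the part of these markers in the results was not tested.

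Of the 9 RBM genes 7 rose and 2 fell, and none was uncalled. Among the 7, RBM20 had passed the filter through its EB arrays alone. RBM24, which promotes muscle and heart splicing, had 194 and 136 in undifferentiated H1, 706 and 762 in H1 EB, 270 and 264 in undifferentiated H9, and 521 and 507 on the arrays labelled H9 EB. All EB arrays were above all undifferentiated ones, and the rise was 1.49 ± 0.10 (limma adjusted p = 2.42e-07). RBM20, the regulator of titin splicing in the heart, had 38.9 and 27.1, then 130 and 93.2 in H1, and 31.3 and 32.9, then 72.7 and 113 in H9. It was below the median on all undifferentiated arrays and on 1 of the arrays labelled H9 EB, and EB was at least 1.39-fold higher (fitted change 1.26 ± 0.22, limma adjusted p = 0.000356, and 0.77 with 64 added).

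RBM5, which controls splicing of apoptosis genes, had 2057 and 2188 in undifferentiated H1, 3764 and 3932 in H1 EB, 1800 and 2030 in undifferentiated H9, and 4769 and 4429 on the arrays labelled H9 EB. The rise was 1.06 ± 0.05 (limma adjusted p = 1.06e-08), and its 3 tested probe sets rose by 0.88 to 1.06. RBM4, an antagonist of PTBP1 on several exons, rose by 0.85 ± 0.09 (limma adjusted p = 5.93e-06), RBM39 by 0.46 ± 0.03 and RBM25 by 0.39 ± 0.05, each with EB arrays above all undifferentiated arrays. After centring RBM39 rose by 0.26 and RBM25 by 0.19.

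RBM47 and RBM38 fell. RBM47, which promotes epithelial splicing and is a cofactor of APOBEC1, had 3459 and 3426, then 1875 and 1892 in H1, and 2694 and 2899, then 1578 and 1607 in H9. It fell by 0.84 ± 0.04 (limma adjusted p = 1.55e-08), and both of its tested probe sets fell by 0.83 to 0.84, while the average with its untested ones fell by 0.45. RBM38, a p53 target that also acts on message stability, fell by 0.68 ± 0.10 (limma adjusted p = 7.6e-05). Beside them, ESRP1, the main epithelial splicing regulator and no member here, had 4347 and 4837, then 2655 and 2612 in H1, and 4586 and 4579, then 2425 and 2414 in H9, a fall of 0.86 ± 0.04 (limma adjusted p = 1.42e-08). Of 5 measured epithelial markers 4 fell, ESRP1 among them, and EPCAM rose, with sums of 30588 to 32356 in undifferentiated cells and 27337 to 31104 in EB. All 6 mesenchymal markers rose, with sums of 10161 to 16023 and 40695 to 42858. Their part in the fall was not tested.

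Among PTB genes, PTBP1 and PTBP3 fell and PTBP2 moved in opposite directions in the lines. PTBP1 represses neural exons in cells that are not neurons, and its loss lets PTBP2, its neural paralog, rise during neural differentiation. PTBP1 had 11246 and 11200 in undifferentiated H1, 9130 and 9252 in H1 EB, 11018 and 10818 in undifferentiated H9, and 9421 and 9262 on the arrays labelled H9 EB. The groups do not overlap, and the fall of 0.26 ± 0.03 (limma adjusted p = 1.92e-05) is a 1.19-fold difference. It was 0.10 under quantile normalization and 0.45 after centring, and was not called when its probe sets were averaged (-0.20, adjusted p = 0.0851). PTBP3 had 6414 and 6264, then 3697 and 3906 in H1, and 5527 and 5702, then 3772 and 3562 in H9. It fell by 0.67 ± 0.04 (limma adjusted p = 4.57e-08), and all 5 of its probe sets fell.

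PTBP2 had 2781 and 2737 in undifferentiated H1 and 4127 and 3850 in H1 EB, a rise of 0.53 ± 0.06 (limma adjusted p = 1.12e-05). In H9 it had 3674 and 3636 in undifferentiated cells and 2947 and 2903 on the arrays labelled H9 EB, a fall of 0.32 ± 0.06 (adjusted p = 0.000431). The difference of the EB effect was -0.85 ± 0.08 (limma adjusted p = 7.26e-05). The mean over the lines (0.10 ± 0.04) describes neither. The second PTBP2 probe set, with 287 to 357 in undifferentiated cells and 337 to 452 in EB, gave a difference between the lines of 0.19 ± 0.21 (limma adjusted p = 0.572), so the opposite direction was seen on the brighter probe set alone. With both averaged the difference was not called (-0.33, adjusted p = 0.0918).

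SR and TRA2 genes moved little. Of 12, 4 rose, 5 fell and 3 were not called, with a median change of 0.03 and a range of -0.44 to 0.60. SRSF12, a divergent SR protein, had 203 and 263 in undifferentiated H1, 389 and 426 in H1 EB, 349 and 283 in undifferentiated H9, and 429 and 421 on the arrays labelled H9 EB. The EB arrays were all above the undifferentiated ones (0.60 ± 0.11, limma adjusted p = 0.000405), but its second probe set was not called and the average of the pair rose by 0.36. SRSF10, which acts as a repressor when dephosphorylated by heat shock, had 4374 and 4276, then 3488 and 3571 in H1, and 5038 and 4545, then 3240 and 3133 in H9. It fell by 0.44 ± 0.04 (limma adjusted p = 3.26e-06). Of its 5 probe sets 3 fell and 1 rose, and its brightest gene-specific probe set was not called (-0.091, adjusted p = 0.141).

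SRSF7 had 13482 and 15813, then 10098 and 8833 in H1, and 12396 and 13952, then 11562 and 12542 in H9. The H1 groups are apart and the H9 groups overlap, and the mean fall was 0.38 ± 0.06 (limma adjusted p = 0.000437). SRSF3 fell by 0.31 ± 0.03 (limma adjusted p = 7.01e-06), by 0.11 under quantile normalization, and was not called when its probe sets were averaged (-0.028, adjusted p = 0.632). The average of the SRSF7 probe sets rose (0.26, adjusted p = 0.00217). SRSF5 and SRSF6 were called in the mean (0.32 ± 0.06 and 0.29 ± 0.05) through H9, where they rose by 0.62 and 0.56. Within H1 they differed by 0.02 (limma adjusted p = 0.819) and 0.03 (adjusted p = 0.754). Before EB formation, H9 minus H1 was already -0.44 for SRSF5 (limma adjusted p = 0.00314) and -0.28 for SRSF6 (adjusted p = 0.0115). Their rise in H9 thus draws on its undifferentiated arrays as well as on the arrays labelled H9 EB. After centring, the mean change of neither gene was called.

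Of the 20 members with an HNRNP symbol 5 rose, 9 fell and 6 were not called, the noncoding HNRNPD-DT among the 6. All 14 called changes were under 0.5. Their median was -0.06, with a range of -0.48 to 0.36. HNRNPL, which binds CA repeats, had 7830 and 7621 in undifferentiated H1, 5910 and 5525 in H1 EB, 8970 and 8972 in undifferentiated H9, and 6066 and 6340 on the arrays labelled H9 EB. Every EB array was below every undifferentiated one (-0.48 ± 0.04, limma adjusted p = 4.35e-07). HNRNPF, which binds G runs, had 4909 and 4429, then 3207 and 3101 in H1, and 3947 and 3978, then 3397 and 3234 in H9. It fell by 0.41 ± 0.04 (limma adjusted p = 6.95e-06).

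HNRNPA1, the classical antagonist of SRSF1, had 7019 and 7116, then 8923 and 8791 in H1, and 7811 and 7793, then 10314 and 10302 in H9, a rise of 0.36 ± 0.03 (limma adjusted p = 1.2e-06), or 0.17 after centring. HNRNPA2B1, its nearest relative, had 26556 and 25998, then 22812 and 22173 in H1, and 30100 and 28107, then 22081 and 22227 in H9. It fell by 0.31 ± 0.03 (limma adjusted p = 5.7e-06) on its brightest probe set, by 0.14 under quantile normalization and by 0.51 after centring. HNRNPA1, HNRNPDL, HNRNPU, PTBP1, SRSF7 and SRSF8 have a brightest probe set whose name ends in x_at, which marks probes that may bind transcripts of other genes, so the values of these 6 are uncertain. A further 25 members are read by probe sets that several transcripts of the same or a related gene can share.

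In all, the 4 EB arrays lay above the 4 undifferentiated ones for 18 members (27.1% of all tested genes) and below for 12 (24.5%), while 29 overlapped.

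Probe sets of 1 member often disagreed. A gene's probe sets read different stretches of its transcripts, and they were fitted one by one with adjustment over all 25808 tested probe sets. The members have 232 probe sets, of which 190 were tested, 65 rose (33.3% of all probe sets rose) and 62 fell (30%). Of the 49 members with at least 2 tested probe sets, 12 had probe sets called in opposite directions, against 7.76% of the 6741 genes with as many. Of the 20 members with at least 4, 10 had, against 19.1% of 1231 genes. This is a description, and the number of probe sets differs from gene to gene.

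Large gaps between probe sets were also counted by direction. In 11 of the 49 (22.4%) the brightest probe set changed by under 0.5 while one weaker in its mean over all 8 arrays rose by at least 1. This held for 3.19% of all such genes. The reverse, a weaker probe set that fell by at least 1, was seen in 0 members and 1.14% of genes, a share so low that 0 of 49 says little. The 11 were HNRNPA1, HNRNPA2B1, HNRNPC, HNRNPD, HNRNPDL, SRSF1, SRSF3, SRSF7, TRA2A, RBM39 and RBFOX1. Among them HNRNPA1, SRSF1, RBM39 and RBFOX1 had no probe sets called in opposite directions. HNRNPH3 and HNRNPUL2, outside the 11, went the other way, with the brightest up (0.21 and 0.27) and another down (-0.39 and -0.31). The limits of 0.5 and 1 were set after the values were seen, and the count of members moves with the settings. It was 4 under quantile normalization (8.16% of the 49, beside 2.24% of all such genes) and 5 with 64 added before the logarithm (10.2% beside 1.51%). After centring it was 2, and that 4.08% lies near the 2% of all genes. Without the arrays labelled H9 EB it was 6 (12.2% beside 2.63%), of which 4 were among the 11. The gap between the rise of the weaker and the change of the brightest probe set, which centring cannot alter, was 0.62 to 1.56 over the 11, and 0.27 to 1.40 under quantile normalization.

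HNRNPD, which encodes AUF1, was among the members counted under every setting run. Its brightest probe set read 16582 and 18988, then 13488 and 13692 in H1, and 16292 and 15580, then 17259 and 17371 in H9, a mean difference of -0.13 ± 0.04. A weaker probe set read 1161 and 1231, then 3737 and 3828 in H1, and 1233 and 1570, then 3142 and 3341 in H9. Every EB array was above every undifferentiated array, and the rise was 1.43 ± 0.07 (limma adjusted p = 3.45e-08), whereas the other 5 tested probe sets of HNRNPD, the brightest among them, all fell. The fall of the brightest was not called under quantile normalization (0.072, limma adjusted p = 0.0848).

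HNRNPA2B1 fell on its brightest probe set and rose on both others. The probe set next in brightness read 5374 and 5317, then 9856 and 10181 in H1, and 5082 and 5273, then 11119 and 11368 in H9, a rise of 1.01 ± 0.03 (limma adjusted p = 2.01e-09). The weakest tested one rose by 1.23 ± 0.06 (limma adjusted p = 2.42e-08). The mean of all its probe sets reversed the gene's call (0.56, limma adjusted p = 6.25e-06). HNRNPA1 rose on all 3 probe sets, by 0.36, 1.47 and 1.86.

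SRSF7 fell on its brightest probe set and rose on a weaker one, which read 905 and 991, then 1908 and 2029 in H1, and 732 and 884, then 2086 and 2011 in H9 (1.19 ± 0.07, limma adjusted p = 1.05e-07). SRSF3 fell on 4 probe sets and rose on 1, which read 67.0 to 105 in undifferentiated cells and 166 to 214 in EB (1.12 ± 0.15, limma adjusted p = 6.86e-05). HNRNPDL, the paralog of HNRNPD, rose by 1.03 ± 0.03 on 1 probe set (limma adjusted p = 2.04e-09), which read 4734 to 5448 in undifferentiated cells and 9972 to 10601 in EB. The name of this probe set also ends in x_at. It read 59% of the brightest in undifferentiated cells and 109% in EB, so it was the brighter of the pair in EB. The same held for RBFOX1, at 55% and 125%. The weaker probe set of TRA2A read 6.91 to 58.3 in undifferentiated cells and 43.0 to 103 in EB, so that its groups overlap, and its adjusted p by limma was 0.0434. With only weaker probe sets above the array median on all 8 arrays, 7 members remained: HNRNPA1, HNRNPA2B1, HNRNPC, HNRNPD, HNRNPDL, RBM39 and SRSF7 (1.39% of all genes). Which transcripts these probe sets read was not examined here, and what lies behind the gap was not tested.

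**Figure D3:**
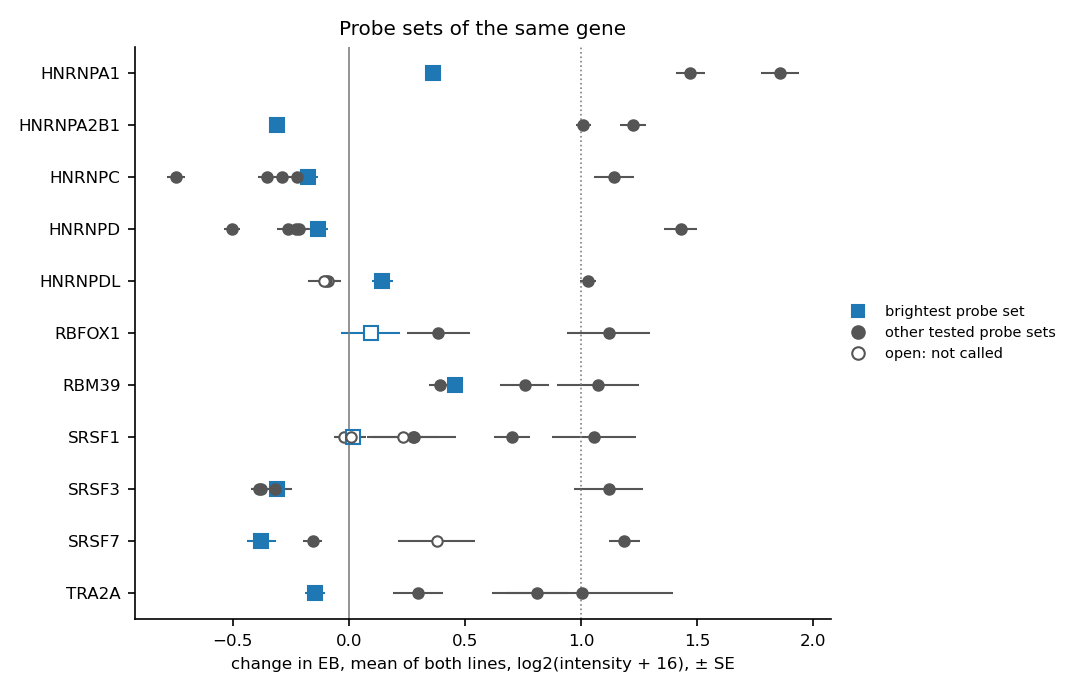
Change of every tested probe set of 11 members in EB, mean of both lines, on the log2(intensity + 16) scale, with standard errors. Squares are brightest probe sets, circles the others and open symbols those not called. In each gene the brightest probe set lies within 0.5 of 0 and at least 1 other lies to the right of the dotted line at 1, as for HNRNPD at -0.13 and 1.43.

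Within the lines, 20 members rose and 21 fell in H1 (29.6% and 28.1% of all tested genes), and 24 rose and 18 fell in H9 (31.6% and 29%). A total of 27 were called with the same sign in both lines (42.1% of all genes) and 3 with opposite signs, CELF2, PTBP2 and SRSF1 (2%). The changes in H1 and H9 correlated at r = 0.851 over the 59 members, which share arrays within each line and are not independent. The EB effect itself differed between the lines for 23 members, 14 with a more positive effect in H9 (11.5% of all genes) and 9 with a more negative one (11.2%). With eBayes run without its trend and robust options these counts were 3 and 4, and they were 9 and 5 without replicate 1 of H1 EB and, separately, without replicate 1 of the arrays labelled H9 EB.

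RBM24 had the largest difference, the one among members of at least 1 (3.93% of all genes). It rose by 2.07 ± 0.15 in H1 and 0.90 ± 0.15 in H9 (difference -1.16 ± 0.21, limma adjusted p = 0.00311), having started lower in H1. The difference for PTBP2 is given above. NOVA2, with the third largest difference (0.69 ± 0.30), was not called (limma adjusted p = 0.119). CELF2, which is active in brain and T cells, had 1915 and 1864, then 1473 and 1468 in H1, and 1508 and 1713, then 1887 and 1928 in H9. It fell by 0.36 ± 0.07 in H1 and rose by 0.24 ± 0.07 in H9 (difference 0.60 ± 0.10, limma adjusted p = 0.00222), and the difference was lost when its probe sets were averaged (0.07, adjusted p = 0.816). All these differences use the arrays labelled H9 EB, and without them none can be computed.

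**Figure D4:**
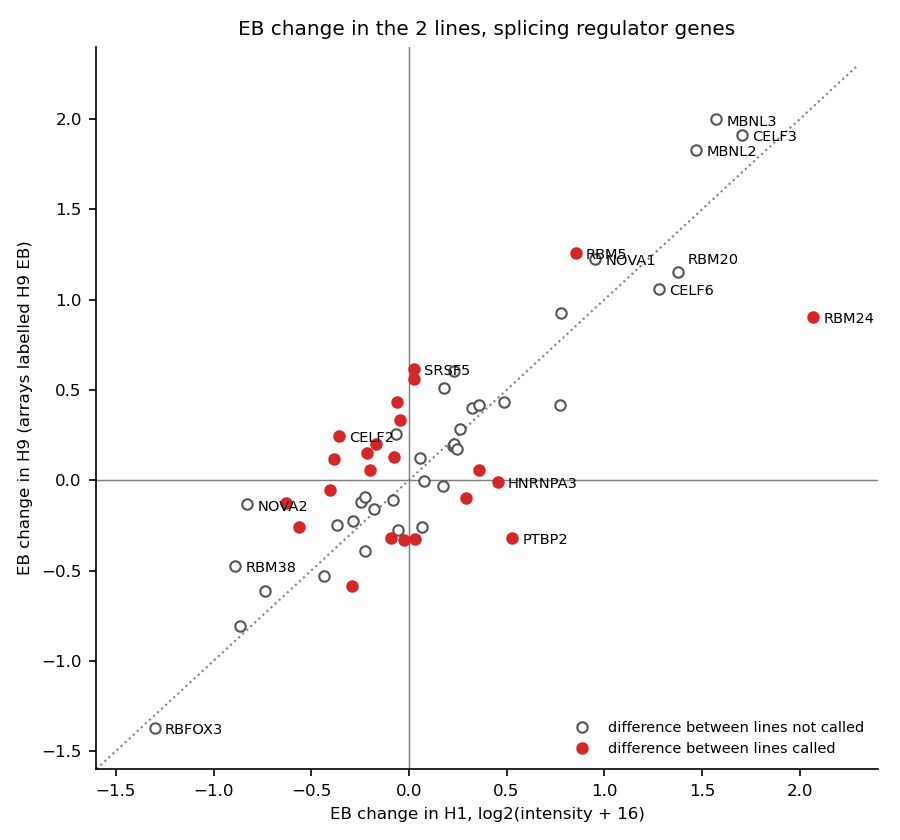
Change of the 59 members in EB in H1 (x axis) and in H9 (y axis, arrays labelled H9 EB), on the log2(intensity + 16) scale. Each point is a gene, filled where the difference between the lines was called, and the dotted line marks equal change. RBM24 lies below that line at 2.07 and 0.90, and PTBP2 at 0.53 and -0.32.

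In undifferentiated cells 9 members were higher in H9 than in H1 and 8 lower (13.8% and 12.5% of all tested genes), and none differed by 1 or more (2.87%). The 8 became 5 without replicate 2 of undifferentiated H1 and 4 without replicate 1 of undifferentiated H9. RBM24 was higher in H9 by 0.66 ± 0.15 (limma adjusted p = 0.00771), and by 0.43 without replicate 2 of undifferentiated H1. SRSF8, an SR gene that arose as a retrocopy, had 1824 and 1861 in H1 and 2518 and 2519 in H9 (0.45 ± 0.06, limma adjusted p = 0.000417). SRSF5 had 7891 and 6700 in H1 and 5161 and 5540 in H9 (-0.44 ± 0.08, limma adjusted p = 0.00314). NOVA2 differed by -0.51 ± 0.21 and was not called (adjusted p = 0.0971). These comparisons do not use the arrays labelled H9 EB other than through the shared spread.

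Companion genes of the splicing machinery were taken from 5 lists. Kinases that phosphorylate SR proteins gave 3 higher and 2 lower of 7, with a median of 0.01. CLK1, whose own message is spliced in response to its activity, had 231 and 222, then 752 and 686 in H1, and 345 and 443, then 728 and 803 in H9, a rise of 1.27 ± 0.09 (limma adjusted p = 2.7e-07). CLK2 rose by 0.54 ± 0.05 (limma adjusted p = 1.02e-06), or 0.34 after centring. Of 15 factors of U2 and the 3′ splice site 1 rose and 8 fell, with a median of -0.19, and SF3B5 fell by 0.52 ± 0.05 and SF3A3 by 0.40 ± 0.04. Of 15 U1 and Sm proteins 4 rose and 9 fell, with a median of -0.35.

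SNRPG, an Sm ring subunit, had 17822 and 18830, then 12082 and 12346 in H1, and 19254 and 19151, then 12571 and 12702 in H9. It fell by 0.59 ± 0.03 (limma adjusted p = 2.53e-08), or by 0.39 under quantile normalization. SNRPD1 fell by 0.52 ± 0.03 (limma adjusted p = 7.03e-08), mostly through H9 (-0.88), since without the arrays labelled H9 EB the fall was 0.16 (adjusted p = 0.0163). It was also higher in undifferentiated H9 than in undifferentiated H1 (0.38, limma adjusted p = 0.000153). Of 29 other splicing regulators 9 rose and 14 fell, with a median of -0.03, and TIA1, which binds U-rich sequence beside weak 5′ splice sites, rose by 0.77 ± 0.04 (limma adjusted p = 1.72e-08). Of 6 factors of nonsense-mediated decay 1 rose and 1 fell, SMG8 by 0.21 ± 0.06 (limma adjusted p = 0.00662) and UPF1 by 0.26 ± 0.07 (adjusted p = 0.0046). Neither of these was called without the arrays labelled H9 EB, nor was SMG8 after centring. Of 2 tested blood markers 1 rose and 1 fell, and PTPRC was below the median on all 8 arrays.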

How the data were processed

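Total RNA of 8 samples was hybridised as biotinylated cRNA to Affymetrix U133 Plus 2.0 arrays, and samples were grouped by cell line and state as the labels give them, 2 arrays per group. The authors deposited 1 linear intensity for each probe set on each array. The submitters' processing notes name MAS5, whose version is not given in the sources used here. Because MAS5 takes mismatch signal off, low values are noisy. Detection calls were not used here.

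Of 54675 probe sets, 41097 carried 1 gene symbol and 1801 several. No gene was named from the latter. Each gene was represented by the brightest of its probe sets (mean log2), and genes above their array's median on at least 2 arrays were tested. The scale is log2(intensity + 16), which understates the change of dim genes. One fit of 4 group means over all 8 arrays was made in limma 3.58.1 (R 4.3.3; lmFit, eBayes with trend and robust), with Benjamini-Hochberg adjustment over all tested genes and a threshold of 0.05. The fit was tested on simulated data. A gene below the median on every array of a group is called dim there, and "at least N-fold" divides the bright mean by the array median, or by the dim value where that is higher. Precision is limited by how few arrays there are.

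The members and gene lists were chosen with earlier results of these data known. Values are given for the 3 members with the largest change in each of 7 classes, the 4 with the largest difference of the EB effect, the 4 with the largest difference between undifferentiated lines, and the 2 smallest p per companion list; other members were named by their calls. Replicate numbers do not pair the samples (correlations of deviations from -0.046 to 0.054). Alternatives were 2 other scalings, added values of 1 and 64, other filters, other probe set choices, plain eBayes, a minimum change of 1, a block on replicate number, fits of subsets of groups, and single arrays left out. Promoters are RefSeq's, build GRCh38.p14. The build behind the probe set annotation is not given in the sources used here, and coordinates of the genes themselves are not printed.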

Additional observations from a re-analysis of the deposited data

Results flagged for a closer look

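The EB effect differed between H9 and H1 for 23 members by limma's test of the difference itself. All 23 are computed with the arrays labelled H9 EB, so in EB what sets those arrays apart and a line difference cannot be told apart. Some of the 23 also differed between undifferentiated H9 and H1, without those arrays. By limma, HNRNPA3 (0.40, adjusted p = 0.000166), HNRNPH3 (0.33, adjusted p = 0.000356), RBM10 (-0.41, adjusted p = 0.00437) and SRSF1 (-0.36, adjusted p = 0.00103) did. So did PTBP2 (0.40, limma adjusted p = 0.000443), SRSF8 (0.45, adjusted p = 0.000417), TRA2A (0.41, adjusted p = 0.000703) and RBM24 (0.66, adjusted p = 0.00771). SRSF5 (-0.44, limma adjusted p = 0.00314), SRSF6 (-0.28, adjusted p = 0.0115), HNRNPF (-0.23, adjusted p = 0.0171) and CELF2 (-0.23, adjusted p = 0.0357) did too. In all of these the sign was opposite to that of the EB difference, which is measured from the undifferentiated levels. Others, such as HNRNPD (-0.16, adjusted p = 0.0819), were not called there. On the log2 scale, H9 minus H1, the EB effect was more positive in H9 for CELF2 (0.60), SRSF5 (0.59), SRSF6 (0.53), HNRNPD (0.50), SRSF7 (0.50), RBM10 (0.50), RBM5 (0.40), HNRNPDL (0.38), SRSF1 (0.37), HNRNPM (0.36), HNRNPAB (0.35), HNRNPF (0.31), CELF1 (0.26) and HNRNPU (0.21). It was more negative for RBM24 (-1.16), PTBP2 (-0.85), HNRNPA3 (-0.46), SRSF8 (-0.39), TRA2A (-0.35), HNRNPC (-0.30), HNRNPH3 (-0.30), SRSF10 (-0.29) and QKI (-0.23). The difference changed sign on gene-specific probe sets for HNRNPD, HNRNPDL and SRSF7. Over averaged probe sets it changed sign for CELF1, HNRNPD, HNRNPDL, SRSF10 and TRA2A. The second probe set of PTBP2, given above, also had the opposite sign and was not called.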

How the results depend on the processing

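Each choice was changed on its own, and the cause of a shift was not tested. Added values of 1 and 64 kept the direction and call of the 111 single-gene results computed (mean EB contrast, difference of the EB effect, undifferentiated lines). Counts of calls over brightest probe sets moved slightly, as for members higher in H1 (19 with 1 added, 20 otherwise). MAS5 gives no depth, and with 2 arrays per group the low, noisy genes limit what can be called.

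With a minimum log2 change of 1, all genes called numbered 1945 in the mean EB contrast, 2004 in H1, 2180 in H9, 552 for the difference of the EB effect and 404 between undifferentiated lines. Members higher and lower then numbered 8 and 1 in the mean, 6 and 1 in H1, 7 and 1 in H9, 0 and 1 for the difference, and 0 and 0 between undifferentiated lines, where limma called 9 and 8 at any size.

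After centring, members numbered 13 higher in the mean contrast, 28 lower in H9 and 5 lower between undifferentiated lines. The mean change turned for HNRNPDL (-0.053), HNRNPH1 (-0.11), HNRNPR (-0.13), HNRNPU (-0.17), PTBP2 (-0.093), RBFOX1 (-0.10), RBM10 (-0.010), SRSF1 (-0.18), SRSF4 (-0.16) and SRSF8 (-0.10). Quantile normalization left 12 members lower in the mean and turned CELF1 (0.085), HNRNPA0 (0.082), HNRNPC (0.042), HNRNPD (0.072), HNRNPK (0.025), HNRNPM (0.16), RBFOX1 (-0.12) and TRA2B (0.023).

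With gene-specific probe sets, which 48 members have, 14 members were lower in the mean, 11 lower in H1, 5 higher for the difference of the EB effect and 4 lower between undifferentiated lines. The mean change turned for CELF2 (0.35), HNRNPA2B1 (1.23), HNRNPD (1.43), HNRNPDL (-0.11), HNRNPH1 (-0.034), HNRNPM (0.18), HNRNPR (-0.080), HNRNPU (-0.14) and SRSF11 (-0.067). The difference of the EB effect turned for HNRNPD (-0.44), HNRNPDL (-0.57) and SRSF7 (-0.29), and that between undifferentiated lines for CELF2 (0.27) and HNRNPA2B1 (-0.33).

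With the mean of all probe sets, 11 members were lower in H1 and 11 in H9, 7 higher and 3 lower for the difference of the EB effect (1646 of all genes called), and 3 higher between undifferentiated lines (2322 of all genes). The mean change turned for CELF2 (0.10), HNRNPA2B1 (0.56), HNRNPH3 (-0.049), HNRNPM (0.14), HNRNPU (-0.11), HNRNPUL2 (-0.019), QKI (0.029), RBFOX2 (0.022), SRSF7 (0.26) and TRA2A (0.59). The difference of the EB effect turned for CELF1 (-0.17), HNRNPD (-0.32), HNRNPDL (-0.26), SRSF10 (0.040) and TRA2A (0.63), and that between undifferentiated lines for CELF2 (0.052), HNRNPA2B1 (-0.13), HNRNPH3 (-0.053) and TRA2A (-0.35).

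Without trend and robust options, eBayes called 3 members higher and 4 lower for the difference of the EB effect (2015 of all genes) and 4 lower between undifferentiated lines. Without the arrays labelled H9 EB, HNRNPDL (-0.046), HNRNPU (-0.078), HNRNPUL1 (0.065), RBFOX1 (-0.068), RBM10 (-0.061), SRSF1 (-0.17) and TRA2A (0.029) turned. Members with a weaker probe set that rose by 1 or more numbered 4 with quantile normalization, 2 after centring, 5 with 64 added, 6 without the arrays labelled H9 EB and 7 with only weaker probe sets above the median on all arrays, alternatives chosen after seeing the data.

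Leaving out 1 array at a time gave 22 to 25 members higher and 19 to 22 lower in the mean EB contrast. For the difference of the EB effect it gave 9 to 13 higher and 5 to 11 lower, with 2030 to 3121 of all genes called, and the lowest counts came without replicate 1 of H1 EB or replicate 1 of the arrays labelled H9 EB. Between undifferentiated lines 4 to 9 members were lower, with the fewest without replicate 1 of H9. The mean change of SRSF1 ranged from -0.012 to 0.047 and that of HNRNPM from -0.074 to 0.0064.

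The replicate number as a block gave 24 members higher and 22 lower in the mean EB contrast, as without it; the numbers do not pair the samples, and in the other contrasts it ended the call for the difference of HNRNPU and for HNRNPA1 and PTBP3 between undifferentiated lines, and left 17 members lower in H9 in place of 18.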
